A study of Homo sapiens with 36 samples.

Results

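Of 6 long noncoding RNAs linked to hypoxia, NEAT1, MALAT1, H19, GAS5, SNHG1 and MIR210HG, 5 were found by name among the 21950 genes of the expression table, and MIR210HG was not analysed here. The 6 were chosen by name, with earlier results of these data known. Expression had been measured by polyA-selected RNA sequencing in K562, a human erythroleukemia cell line. Cells stood in incubators of 21%, 5% or 1% oxygen and were collected at 6 h, 24 h, 3 d and 6 d, which gives 12 groups of 3 libraries, 36 in all. All groups shared the same line, DMEM medium and seeding. The plates were passaged at 3 d, so the later and earlier groups can differ by that passage as well as by time, and within a time the groups differ by oxygen as labelled. The question is how these RNAs differed between low and atmospheric oxygen, and when. Oxygen level and incubator cannot be told apart in this design, and nothing in the labels says that replicates came from separate cultures, so p-values measure only the spread between these libraries. In bulk samples, fewer cells that make an RNA and less of it per cell cannot be told apart.

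Cells short of oxygen stabilise the hypoxia-inducible factors (HIF), which bind DNA at a short core motif and raise the transcription of their targets. Long noncoding RNAs are RNAs that make no known protein and can act as scaffolds, as precursors of small RNAs, or as hosts for them. NEAT1 is the scaffold of paraspeckles, nuclear bodies that hold certain RNAs and proteins, and MALAT1 collects in the neighbouring nuclear speckles, which are rich in splicing factors; both stay in the nucleus. H19 is an imprinted RNA transcribed from the maternal chromosome beside IGF2 and is the precursor of miR-675. GAS5 and SNHG1 are spliced RNAs whose introns carry small nucleolar RNAs (snoRNAs), the guides for modifying ribosomal RNA, and their spliced forms are turned over when translation runs. The mature MALAT1 and the long form of NEAT1 end in a triple helix and not in a polyA tail, and polyA selection can underrepresent them.

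The start regions of MALAT1, SNHG1 and H19, whose level rose in both low-oxygen levels at 3 d, are shown because HIF acts on such sequences. Promoter entries, 250 bases before to 50 bases after a start, matched 4 of the 5 measured members in RefSeq (build GRCh38.p14), with 2 starts for MALAT1. The member without an entry was NEAT1, which also rose in both at 3 d, so its start region is not described. Capitals mark ACGTG or GCGTG, the letters of the HIF core, on either strand, so that CACGT and CACGC are the reverse reading. The first MALAT1 start lies on the plus strand at chr11:65497488-65497787, the second at chr11:65498795-65499094, the SNHG1 start on the minus strand at chr11:62855836-62856135 and the H19 start on the minus strand at chr11:2001217-2001516.
MALAT1, first start: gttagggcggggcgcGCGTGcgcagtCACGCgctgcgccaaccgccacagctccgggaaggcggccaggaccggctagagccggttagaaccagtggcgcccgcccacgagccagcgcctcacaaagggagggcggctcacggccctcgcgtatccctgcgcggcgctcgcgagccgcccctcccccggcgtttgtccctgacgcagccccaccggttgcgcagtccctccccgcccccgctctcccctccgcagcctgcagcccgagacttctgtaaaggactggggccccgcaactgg
MALAT1, second start: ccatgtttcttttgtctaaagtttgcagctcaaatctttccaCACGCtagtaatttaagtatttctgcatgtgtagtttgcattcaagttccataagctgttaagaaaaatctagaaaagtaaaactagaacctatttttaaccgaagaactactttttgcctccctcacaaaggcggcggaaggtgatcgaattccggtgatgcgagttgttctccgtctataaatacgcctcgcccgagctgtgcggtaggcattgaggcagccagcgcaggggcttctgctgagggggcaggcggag
SNHG1: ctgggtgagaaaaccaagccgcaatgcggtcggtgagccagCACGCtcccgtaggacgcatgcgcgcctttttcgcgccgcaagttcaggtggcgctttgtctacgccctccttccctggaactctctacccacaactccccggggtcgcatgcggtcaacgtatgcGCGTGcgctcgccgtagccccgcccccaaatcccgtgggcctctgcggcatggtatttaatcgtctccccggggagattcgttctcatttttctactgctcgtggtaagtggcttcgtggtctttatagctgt
H19: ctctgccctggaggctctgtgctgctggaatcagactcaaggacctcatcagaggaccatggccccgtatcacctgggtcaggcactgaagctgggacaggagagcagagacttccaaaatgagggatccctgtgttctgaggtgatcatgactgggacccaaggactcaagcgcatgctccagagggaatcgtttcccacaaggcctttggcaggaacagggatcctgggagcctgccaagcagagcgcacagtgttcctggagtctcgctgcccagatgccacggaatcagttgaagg
Windows were taken by gene name, and whether each holds the start of the measured transcript was not checked. The windows of MALAT1 held 2 and 1 matches, that of SNHG1 held 2, and those of H19 and GAS5 held 0. All matches were GCGTG and none was ACGTG. Among 35116 RefSeq promoter windows of the same length, 36.5% held GCGTG, 21.4% held ACGTG and 48.4% held either, so a match is common and is a description only.

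H19 also contains the hairpin of miR-675, whose mature forms are shown because an H19 level is the level of their precursor. Capitals mark the seed, bases 2 to 8. The 5p form lies at chr11:1996800-1996822 and the 3p form at chr11:1996768-1996787, both on the minus strand of GRCh38.p14.
hsa-miR-675-5p: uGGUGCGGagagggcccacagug
hsa-miR-675-3p: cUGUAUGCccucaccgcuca
The seeds differ, so the forms would pair with different sites. PolyA-selected libraries do not measure mature miRNAs, and no level of miR-675 is given.

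Levels are in FPKM, fragment counts scaled for transcript length and for library size, which allow genes to be compared per length. The depth in reads is unknown, since the tables hold no counts. Of the 36 libraries, 35 had 14512 to 19543 genes above 0, and replicate 3 of 1% oxygen at 3 d, called the sparse library here, had 7220. All 10 markers of K562 and its erythroid lineage were above 0 in every library, with summed levels of 4871 to 42878 FPKM. This sum moved with oxygen at 6 d. It was 4871 to 5241 FPKM in 21%, 21437 to 22997 FPKM in 5% and 35630 to 42878 FPKM in 1% oxygen. The 8 markers of lymphocytes, hepatocytes, fibroblasts and islet cells summed to 2.34 to 14.8 FPKM. A gene passed the test at a Benjamini-Hochberg adjusted p under 0.05 in a limma model over all libraries, and 10625 genes with a mean of at least 1 FPKM were tested, all 5 measured members among them. Differences are on the scale of log2(FPKM + 1), which understates changes of low genes such as H19.

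The members spanned a wide range of levels. GAS5 had the highest mean over the libraries, 924 FPKM, at the 99.4th percentile of the genes in the table, followed by SNHG1 with 304 FPKM (98.3), MALAT1 with 219 FPKM (97.6), NEAT1 with 15.3 FPKM (79.9) and H19 with 2.97 FPKM (61.4). The order for how far the means of the 12 groups spread was almost the opposite. H19 differed by 16.6-fold between its highest and lowest group, NEAT1 by 6.75-fold, MALAT1 by 4.24-fold, SNHG1 by 1.74-fold and GAS5 by 1.64-fold. Each gene's level in the table equalled that of a single transcript record, with a largest difference of 0 FPKM, and the record for NEAT1 was the short form.

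**Figure D1:**
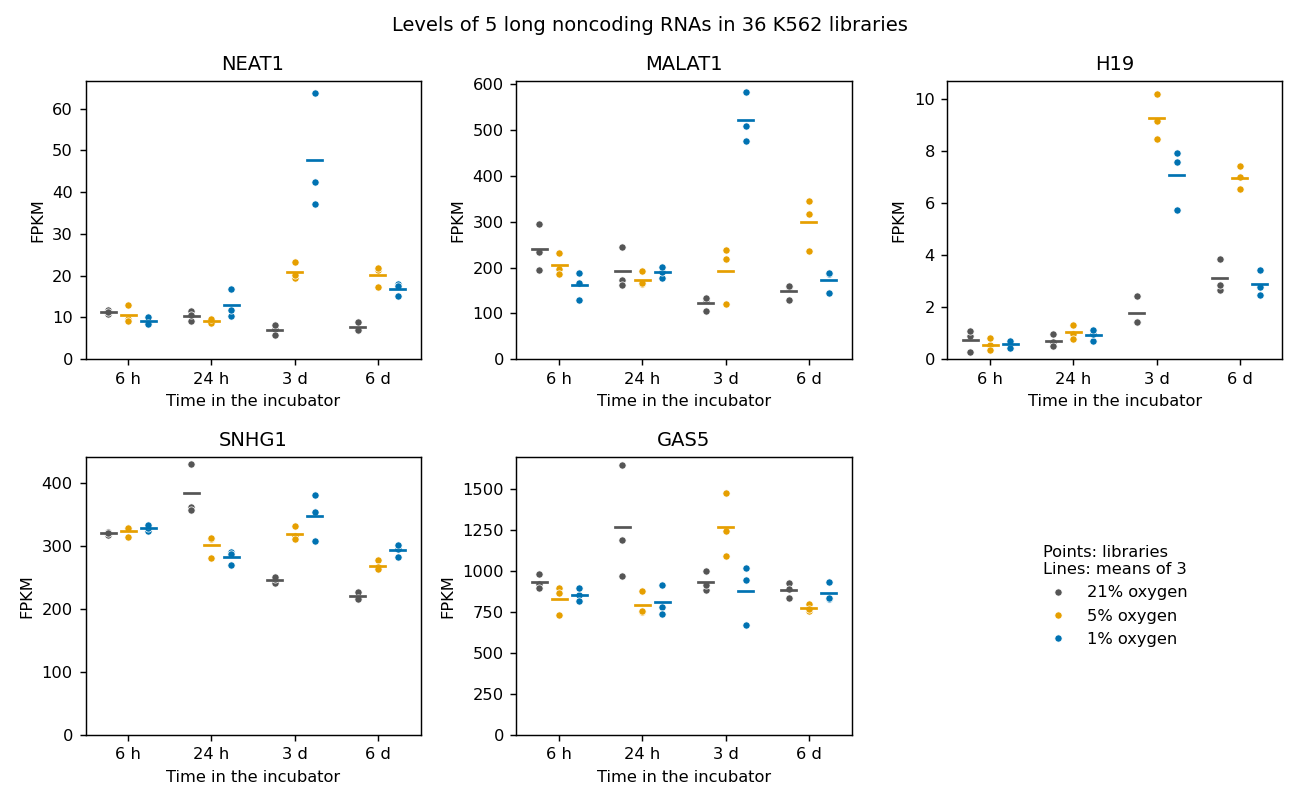
Levels in FPKM (vertical axes, each starting at 0) of 5 long noncoding RNAs by time in the incubator, with a point for each library and a line for the mean of 3, coloured by oxygen level. The 3 libraries of 1% oxygen at 3 d held the highest NEAT1 and MALAT1 levels, H19 was highest in 5% oxygen at 3 d, and SNHG1 and GAS5 moved over a narrower range.

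NEAT1 was higher in both low-oxygen levels at 3 d and 6 d. In 1% oxygen at 3 d its level was 42.5, 37.1 and 63.7 FPKM in replicates 1 to 3, against 7.11, 8.28 and 5.84 FPKM in 21% oxygen. The lowest of these low-oxygen libraries stood above all other libraries of the series, and the groups did not overlap. The log2 difference was 2.57 (SE 0.174, 95% interval 2.21 to 2.93, adjusted p 3.27e-12), or 6.75-fold between means. The largest of these values came from the sparse library; without it the difference was 2.34 (adjusted p 1.46e-12).

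In 5% oxygen at 3 d NEAT1 stood at 19.4, 20.1 and 23.2 FPKM, above all 3 libraries of 21% oxygen and below all 3 of 1% oxygen. Its log2 difference from 21% oxygen was 1.45 (SE 0.174, adjusted p 3.58e-07), and 1% exceeded 5% oxygen by 1.12 (adjusted p 0.000104; 0.636 in a fit on those 6 libraries alone). NEAT1 at 3 d thus increased in steps from 21% to 5% to 1% oxygen with no overlap between groups. The comparisons of 1% and of 5% with 21% oxygen share the 21% libraries.

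At 6 d the steps were gone. NEAT1 stood at 17.9, 17.5 and 15.1 FPKM in 1% oxygen and at 17.2, 21.3 and 21.8 FPKM in 5% oxygen, against 7.05, 6.998 and 8.99 FPKM in 21% oxygen. The differences from 21% oxygen were 1.04 in 1% (adjusted p 0.000103) and 1.28 in 5% (adjusted p 3.88e-06). Groups of 1% and 5% oxygen overlapped, with a difference of -0.24 (95% interval -0.60 to 0.12, adjusted p 0.532).

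The early libraries did not show this pattern. At 6 h NEAT1 was 10.2, 8.69 and 8.45 FPKM in 1% oxygen, 9.56, 13.0 and 9.11 FPKM in 5% and 11.8, 10.9 and 11.2 FPKM in 21%. At 24 h it was 10.4, 11.9 and 16.8 FPKM in 1% oxygen, 9.01, 8.57 and 9.56 FPKM in 5% and 9.12, 11.6 and 10.5 FPKM in 21%. No difference from 21% oxygen passed at 6 h or 24 h. The difference in 1% oxygen at 24 h was 0.28 (adjusted p 0.34), and 0.71 (adjusted p 0.0263) after rescaling each library to TPM, which sets all totals equal. That rescaling moved the median of all genes tested to 0.39 from 0, and the direction of NEAT1 was the same under both.

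Over time NEAT1 went in opposite directions. From 6 h to 3 d it fell in 21% oxygen by 0.62 on the log2 scale (adjusted p 0.0368), while it rose by 0.93 in 5% (adjusted p 0.000145) and by 2.24 in 1% oxygen (adjusted p 3.43e-11). The fall in 21% oxygen lay between -0.72 and -0.50 with a library left out. It did not pass without replicate 1, 2 or 3 of 6 h or replicate 1 or 3 of 3 d (adjusted p up to 0.211), with no filter on low values (0.0684) or after rescaling to TPM (0.237). The moderated F test of whether the difference from 21% oxygen varied over the 4 times passed for 1% (F 50.5, adjusted p 4.72e-09) and for 5% oxygen (F 25, adjusted p 4.32e-06).

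MALAT1 shared the peak in 1% oxygen at 3 d but not the level at 6 d. At 3 d it stood at 476, 509.9 and 583 FPKM in 1% oxygen against 129.9, 134 and 106 FPKM in 21%, with every low-oxygen library above every other library of the series. The log2 difference was 2.08 (SE 0.206, adjusted p 4.57e-09), or 4.24-fold, and 2 without the sparse library (adjusted p 1.79e-08). At 6 d in 1% oxygen MALAT1 was back at 187, 189 and 144 FPKM, overlapping the 129.8, 157 and 160.3 FPKM of 21% oxygen. That difference was 0.21 (95% interval -0.21 to 0.63, adjusted p 0.669).

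In 5% oxygen the highest mean MALAT1 level was at 6 d. Within 5% oxygen the rise from 6 h to 6 d did not pass (0.53, adjusted p 0.0635). That rise passed in 5 of 16 alternatives, and MALAT1 at 6 d was not tested against 3 d. At 6 d its level was 236, 317 and 344 FPKM, above all libraries of 21% and of 1% oxygen at 6 d. The difference from 21% oxygen was 0.99 (adjusted p 0.00103), and 1% stood 0.78 below 5% oxygen, a log2 difference of -0.78 (adjusted p 0.0153). That call ended without replicate 2 or 3 of 5% oxygen or replicate 3 of 1% oxygen at 6 d (-0.72, -0.66 and -0.65, adjusted p 0.069, 0.0995 and 0.114). At 3 d the 5% libraries spread widely, with 237, 219 and 119.7 FPKM, and the lowest lay among the 21% libraries. The 5% difference at 3 d was 0.58 (adjusted p 0.0422), and its adjusted p rose above 0.05 with no filter on low values (0.0723), after rescaling to TPM (0.24) and in a fit on the compared groups only (0.0957). It also did so without replicate 1, 2 or 3 of 21% oxygen (0.62, 0.65 and 0.48) and without replicate 1 or 2 of 5% oxygen (0.40 and 0.46), with adjusted p between 0.0566 and 0.247. Without replicate 3 of 5% oxygen, the lowest of its group, the difference was 0.89 (adjusted p 0.00121). Averaged over the 4 times MALAT1 was higher by 0.43 in 1% (adjusted p 0.002) and by 0.3 in 5% oxygen (adjusted p 0.0296), and the latter call ended in 11 of the 24 fits that left out 1 library.

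The early values of MALAT1 went the other way. At 6 h it was 167, 188 and 129.6 FPKM in 1% oxygen and 294, 195 and 233 FPKM in 21% oxygen, groups that did not overlap. The difference of -0.57 had an unadjusted p of 0.0104 and an adjusted p of 1. No gene of the 10625 passed at 6 h in 1% oxygen, with 351 at an unadjusted p under 0.05. At 24 h MALAT1 was 178, 190.5 and 202 FPKM in 1% oxygen, 192, 164 and 166 FPKM in 5% and 172, 244 and 162 FPKM in 21%, all overlapping. Within 21% oxygen MALAT1 fell from 6 h to 3 d by 0.95 (adjusted p 0.00548) and to 6 d by 0.67 (adjusted p 0.0325). Neither passed without replicate 1 of 6 h (-0.79 and -0.52, adjusted p 0.0689 and 0.219) or after rescaling to TPM (adjusted p 0.052 and 0.121). The fall to 6 d also did not pass without replicate 3 of 6 h or replicate 1, 2 or 3 of 6 d (-0.69, -0.58, -0.71 and -0.73, adjusted p between 0.0604 and 0.145), with no filter on low values (0.0599) or after quantile normalization (0.0816). The difference from 21% oxygen varied with time in 1% (F 31, adjusted p 3.24e-07) and in 5% oxygen (F 7.89, adjusted p 0.00783).

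**Figure D2:**
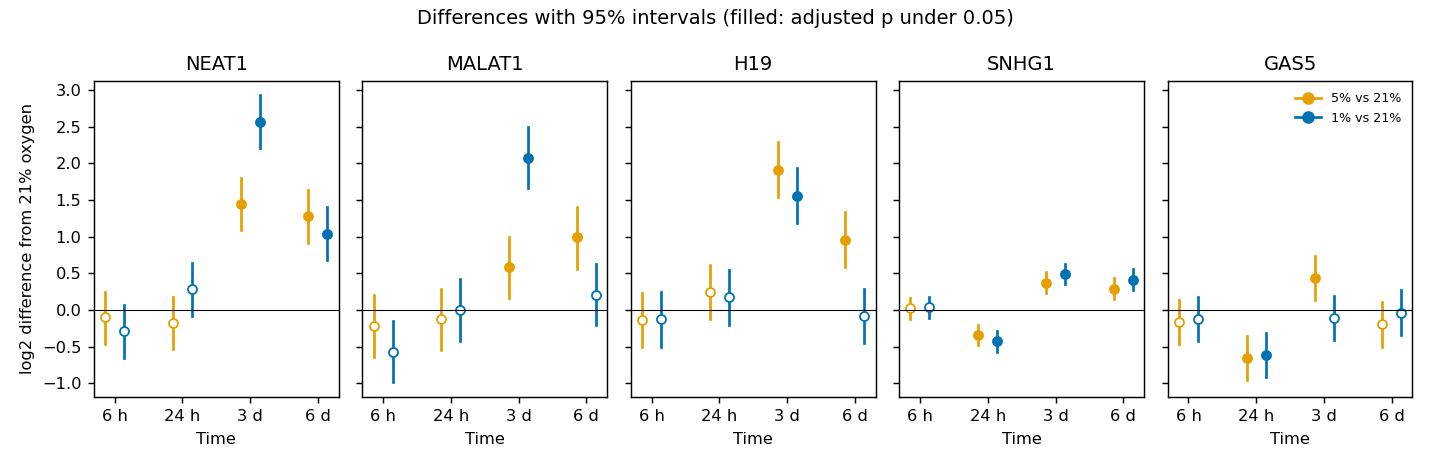
Differences in log2(FPKM + 1) from 21% oxygen (vertical axis) at 4 times, with 95% intervals from the limma fit, for 5% and 1% oxygen; filled points have an adjusted p under 0.05. At 3 d NEAT1 (2.57) and MALAT1 (2.08) in 1% oxygen and H19 (1.91) in 5% oxygen lie highest. SNHG1 and GAS5 lie below 0 at 24 h, where the SNHG1 values became 0.03 and 0.11 after rescaling to TPM.

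Within a library, the ratio of NEAT1 to MALAT1 does not depend on how the library as a whole was scaled. Its mean was between 0.0481 and 0.0572 in the 4 groups of 21% oxygen. In 1% oxygen it was 0.0904 ± 0.0183 at 3 d and 0.0977 ± 0.0061 at 6 d (SD, n = 3), above every library of 21% oxygen in both cases. At 6 d in 5% oxygen it was 0.0678 ± 0.00477, between the means of 21% and 1% oxygen. In 5% oxygen at 3 d replicate 3, the library with the low MALAT1 level, had 0.194 where replicates 1 and 2 had 0.0818 and 0.0918. NEAT1 therefore gained on MALAT1 in low oxygen at 3 d and 6 d by these ratios, which were not tested.

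**Figure D3:**
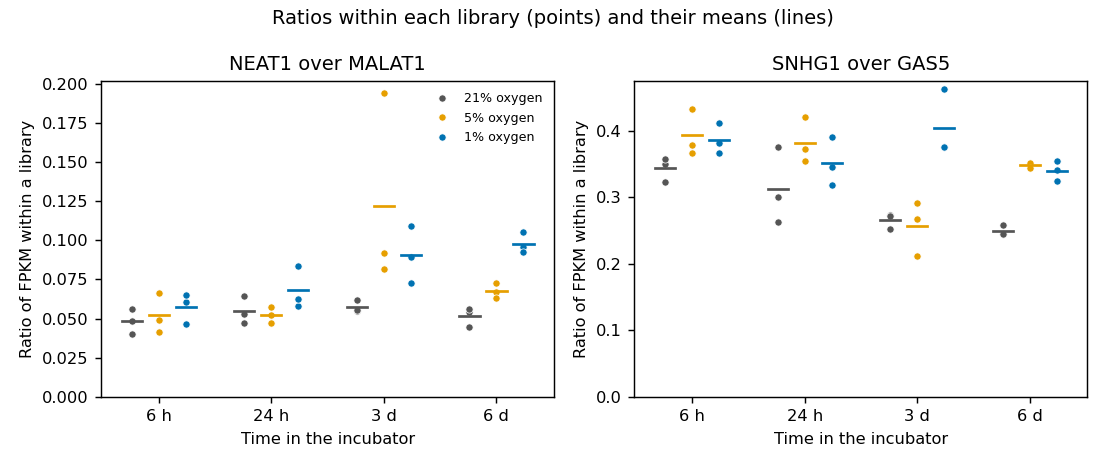
Ratios of FPKM within each library (vertical axes, from 0) for NEAT1 over MALAT1 and SNHG1 over GAS5 by time, with a point per library and a line at the mean of 3. NEAT1 over MALAT1 lies near 0.05 in 21% oxygen and near 0.1 in 1% oxygen at 3 d and 6 d, and SNHG1 over GAS5 falls with time in 21% oxygen.

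Over the 12 group means NEAT1 and MALAT1 had a Pearson correlation of 0.86 and a Spearman correlation of 0.73, a description over points that share libraries and the peak in 1% oxygen at 3 d. The genes most like NEAT1 over the 12 group means were TCP11L2 (Pearson 0.975), CCNY (0.967), a cyclin, and CLK1 (0.966), a kinase of splicing factors. Those most like MALAT1 were SLC16A4 (0.949), a transporter of the monocarboxylate family, TMEM44-AS1 (0.943), an antisense RNA, and GXYLT1 (0.936). The mean level of CLK1 was 37.1 FPKM, that of SLC16A4 1.2 FPKM and that of GXYLT1 1.13 FPKM, near the filter.

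Of 6 other nuclear noncoding RNAs, 3 passed the filter, and 2 of these rose at 3 d in 1% oxygen, where 16.9% of all genes tested rose. KCNQ1OT1, an antisense RNA that silences an imprinted domain, had 13.9 FPKM in 1% oxygen at 3 d against 2.35 FPKM in 21%, a log2 difference of 2.03 (adjusted p 1.17e-06; 1.84 without the sparse library). It also rose in 5% oxygen at 6 d (1.17, adjusted p 0.00387) and stood at 0.57 there at 3 d (adjusted p 0.162). TUG1 rose by 0.51 in 1% oxygen at 3 d (adjusted p 0.0117), a call that ended without the sparse library (0.31, adjusted p 0.0945). The median of the 3 was 0.51, beside -0.32 over all genes tested (0.38 and -0.01 without the sparse library).

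Of 15 genes for proteins of paraspeckles, the bodies NEAT1 builds, 11 fell and 1 rose at 3 d in 1% oxygen, where 36.3% of all genes tested fell. Their median was -0.64 beside -0.32 over all genes. HNRNPH3 (-0.59), SMARCA4 (-0.56), CPSF6 (-0.74) and NUDT21 (-0.90), the latter pair being subunits of an RNA cleavage factor, had the smallest adjusted p. Without the sparse library 8 of the 15 fell and none rose, with a median of -0.37 beside -0.01, and CPSF6 and NUDT21 had -0.37 and -0.41. Of all genes tested 28.5% fell in that fit. Of 12 genes for speckle proteins 7 fell, among them the splicing factors SRSF3 (-0.73) and SRSF7 (-1.29), with a median of -0.28, no lower than that of all genes; without the sparse library 5 fell, with the same median. In 5% oxygen at 3 d, where 13.6% of all genes fell, 2 of the 15 paraspeckle genes fell, a share near that of all genes. Of the 12 speckle genes 6 fell there, and no gene of either list rose. With the sparse library left out of the fit these were 5 and 7, beside 29.2% of all genes. At 24 h in 1% oxygen PSPC1, a core paraspeckle protein, rose by 1.75 (adjusted p 0.000646) at a time when NEAT1 had not passed. That was the largest value of the 15 genes. With the sparse library left out of the fit 2 of the 15 rose and 3 fell at 24 h, with a median of -0.12. Of all genes tested 16.6% rose and 22% fell in that comparison.

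NEAT1 and MALAT1 are neighbours on chromosome 11, and in RefSeq the nearest protein-coding gene on the side of lower coordinates is FRMD8 for both. It did not pass at 3 d in 1% oxygen, with 0.40 (adjusted p 0.307; 0.70 and 0.0791 without the sparse library). At 24 h, when NEAT1 and MALAT1 had not passed, FRMD8 was higher in 1% oxygen (1.31, adjusted p 0.00635). LTBP3, a further gene of that region, rose by 1.30 at 3 d (adjusted p 0.000707; 0.76 without the sparse library), from 1.35 to 5.71 FPKM.

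Library measures moved with time and oxygen as well. The share of 394 olfactory receptor genes above 0, a rough sign of background reads, was 33.8% to 38.8% in 21% oxygen at 3 d and 48% to 56.3% in 5% oxygen. In 1% oxygen at 3 d it was 54.8% and 70.1% in replicates 1 and 2 and 2.28% in the sparse library. At 6 d the share was 39.6% to 48.2% in 21%, 66% to 74.6% in 5% and 23.6% to 37.1% in 1% oxygen. The 5% group, with the highest share at 6 d, also had the highest mean NEAT1, MALAT1 and H19 levels of that time. SNHG1 was highest then in 1% and GAS5 in 21% oxygen. The sparse library, with the lowest share, had the highest NEAT1 and MALAT1 levels, and replicate 3 of 5% oxygen at 24 h, with a share of 67.3%, had 9.56 FPKM of NEAT1 where the other replicates had 9.01 and 8.57 FPKM. The 8 markers of other cell types summed to 6.68 to 6.94 FPKM in 21% oxygen at 3 d, 10.6 to 14.8 FPKM in 5% and 11.3 to 12.5 FPKM in 1%, mostly from COL1A2, a collagen, with 5.08, 9.71 and 8.5 FPKM on average. INS was at 0 in all 9 of those libraries, and CD3E, MS4A1, ALB and COL3A1 averaged at most 0.415 FPKM in any of the 3 groups. The part of these measures in the results was not tested.

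H19 had the widest range of the members and was higher at 3 d and 6 d than at 6 h at every oxygen level. In 5% and 1% oxygen its mean was highest at 3 d and lower at 6 d. At 6 h it was between 0.266 and 1.10 FPKM in all 9 libraries and at 24 h between 0.505 and 1.33 FPKM, near the filter. At 3 d it stood at 9.15, 8.45 and 10.2 FPKM in 5% oxygen, 5.73, 7.94 and 7.59 FPKM in 1% and 2.44, 1.42 and 1.41 FPKM in 21% oxygen. Both low-oxygen groups lay above 21% oxygen without overlap, and every 5% library lay above every 1% library. The log2 differences from 21% oxygen were 1.91 in 5% (SE 0.182, adjusted p 5.59e-09) and 1.56 in 1% oxygen (SE 0.182, adjusted p 8.2e-08). The difference between 1% and 5% oxygen at 3 d, -0.35 (95% interval -0.73 to 0.02), did not pass (adjusted p 0.12).

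At 6 d H19 was retained in 5% oxygen and not in 1%. It stood at 6.998, 6.53 and 7.42 FPKM in 5% oxygen and at 3.42, 2.79 and 2.45 FPKM in 1%, against 2.67, 3.85 and 2.84 FPKM in 21%. The 1% and 21% groups overlapped, with a difference of -0.08 (adjusted p 0.901), while 5% oxygen stood 0.96 above 21% (adjusted p 0.000345). The 1% group differed from the 5% group by -1.04 (adjusted p 0.000246). Averaged over the 4 times H19 was higher than in 21% by 0.75 in 5% oxygen (adjusted p 4e-07) and by 0.38 in 1% (adjusted p 0.00187), and 1% was below 5% oxygen (-0.36, adjusted p 0.0186). H19 was the 1 member of 5 for which that last average passed, beside 4.41% of all genes, and its adjusted p was 0.189 with a pseudocount of 0.1 and 0.135 after rescaling to TPM. For NEAT1 that average was 0.29 (adjusted p 0.0573), and it passed in 8 of 34 alternatives. Among them, counted both as its own setting and as a left-out library, was the fit without the sparse library (0.23, adjusted p 0.0352). In that fit 14.2% of all genes passed.

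The rise of H19 with time was present in atmospheric oxygen too. From 6 h to 6 d H19 rose by 1.26 in 21% oxygen (adjusted p 4.68e-05), by 2.36 in 5% (adjusted p 7.43e-11) and by 1.3 in 1% oxygen (adjusted p 7.56e-06). From 6 h to 3 d it rose by 0.67 in 21% (adjusted p 0.0293), by 2.73 in 5% and by 2.36 in 1% oxygen. NEAT1 and MALAT1, by contrast, had negative differences from 6 h to 3 d in 21% oxygen. The rise of 0.67 did not pass without replicate 1 or 2 of 6 h or replicate 1 of 3 d (0.74, 0.46 and 0.50, adjusted p 0.0656, 0.212 and 0.223). The difference of H19 from 21% oxygen varied with time in 1% (F 19.1, adjusted p 1.58e-05) and in 5% oxygen (F 24.5, adjusted p 5.02e-06). The genes most like H19 over the 12 group means were C12orf23 (Pearson 0.986), the immediate early factor EGR1 (0.981) and IL2RG (0.978), the shared chain of several cytokine receptors.

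Of 11 other imprinted genes 5 passed the filter, and DLK1 was higher with H19. DLK1, a growth regulator of the Notch ligand family and imprinted on another chromosome, rose from 86.5 to 373 FPKM in 1% oxygen at 3 d (log2 difference 2.06, adjusted p 1.31e-08) and to 376 FPKM in 5% oxygen (2.11, adjusted p 2.18e-08). It differed from H19 at 6 d, when DLK1 was still higher in 1% oxygen (1.87, adjusted p 3.22e-07), and at 24 h, when it had risen there (1.38, adjusted p 0.000177). PLAGL1, a zinc finger factor that regulates imprinted genes, rose by 1.32 in 1% (adjusted p 5.33e-05) and 1.06 in 5% oxygen at 3 d (adjusted p 0.00141). CDKN1C, a cell cycle inhibitor, rose in 5% oxygen at 3 d (1.54, adjusted p 0.00243) and stood at 0.61 in 1% (adjusted p 0.159; 1.44 and 2.65e-07 without the sparse library). Of all genes tested 16.9% were higher at 3 d in 1% and 8.25% in 5% oxygen. Of the 5 imprinted genes 3 rose and none fell at 3 d in each low-oxygen level. The third in 1% oxygen was IGF2R (0.35, adjusted p 0.0218), whose call ended without the sparse library. With that library left out of the fit 3 rose and 1 fell in 5% oxygen, beside 15.7% and 29.2% of all genes. IGF2 itself, which shares control elements with H19, averaged 0.07 FPKM and was not tested.

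Of 6 tested genes for regulators of H19 and IGF2, 4 fell and none rose at 3 d in 1% oxygen, and 3 fell in 5%. Of all genes tested 36.3% and 13.6% fell. LIN28B, an RNA-binding protein, fell from 27.4 to 13.5 FPKM in 1% oxygen, a log2 difference of -0.98 (adjusted p 1.33e-06), and to 12.6 FPKM in 5% (-1.08, adjusted p 6.73e-07). IGF2BP1, which binds both RNAs, had differences of -0.62 (adjusted p 2.6e-05) and -0.88 (adjusted p 3.26e-07). TRIM28 (-1.09, adjusted p 0.00311; -0.38 without the sparse library) and CTCF (-1.17, adjusted p 0.0261; -0.11, adjusted p 0.562, without it), both factors of imprinting control, completed the 4. The list's median in 1% oxygen was -0.80, beside -0.32 over all genes tested, and -0.35 beside -0.01 without the sparse library. In that fit 3 of the 6 fell in 1% and 5 in 5% oxygen, beside 28.5% and 29.2% of all genes. MRPL23, the nearest protein-coding neighbour of H19 in RefSeq, had -2.17 (adjusted p 0.00546) at 3 d in 1% oxygen, and -0.64 (adjusted p 0.0158) without the sparse library.

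SNHG1, with a standard error smaller than that of the other members, was lower in low oxygen at 24 h and higher at 3 d and 6 d. At 6 h its libraries lay between 316 and 334 FPKM at every oxygen level. At 24 h it stood at 269.5, 292 and 289 FPKM in 1% oxygen and 312, 314 and 281 FPKM in 5%, below the 363, 357 and 432 FPKM of 21% oxygen. The log2 differences were -0.43 in 1% (SE 0.0696, adjusted p 0.000228) and -0.34 in 5% oxygen (adjusted p 0.0051). These falls depended on the scale: after rescaling to TPM they became 0.03 and 0.11, and after quantile normalization -0.05 and 0.05, with no call in either case.

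From 3 d the direction of SNHG1 turned. At 3 d it was 355, 382 and 308 FPKM in 1% oxygen and 317, 332 and 312 FPKM in 5%, above the 241, 248 and 252 FPKM of 21% oxygen without overlap. The differences were 0.49 in 1% (SE 0.0696, adjusted p 1.87e-06; 0.58 without the sparse library) and 0.37 in 5% oxygen (adjusted p 0.000182). The 5% difference did not pass after rescaling to TPM (0.23, adjusted p 0.0854), and the 1% difference did not in a fit on the compared groups only (adjusted p 0.0523). At 6 d it was 283, 296 and 302 FPKM in 1%, 278, 266 and 264 FPKM in 5% and 227, 218 and 216 FPKM in 21% oxygen. All libraries of low oxygen were again above those of 21% oxygen, by 0.41 (adjusted p 0.000115) and 0.29 (adjusted p 0.00415).

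The course of SNHG1 from 6 h within each oxygen level depended on the scale. In FPKM, SNHG1 fell in 21% oxygen by 0.38 at 3 d (adjusted p 0.00119) and by 0.54 at 6 d (adjusted p 1.01e-05). In 1% oxygen the change from 6 h was 0.08 at 3 d (adjusted p 0.35; 0.16 and 0.0418 without the sparse library) and -0.17 at 6 d (adjusted p 0.127), and in 5% oxygen -0.02 (adjusted p 0.888) and -0.27 (adjusted p 0.00509). After rescaling to TPM the change to 3 d was -0.27 in 21% (adjusted p 0.122) and 0.35 in 1% oxygen (adjusted p 0.00387), and after quantile normalization it was -0.35 and 0.50 (adjusted p 2.69e-07 for the latter). The oxygen difference varied with time in 1% (F 36.9, adjusted p 7.55e-08) and 5% oxygen (F 21.5, adjusted p 1.5e-05).

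GAS5, the other snoRNA host and the most abundant member, was lower than in 21% oxygen at 24 h and higher at 3 d in 5% oxygen. At 24 h it was 780.2, 914 and 739 FPKM in 1% oxygen and 879, 748 and 753 FPKM in 5%, against 969, 1189 and 1647 FPKM in 21%. The groups did not overlap, and the differences were -0.62 (SE 0.146, adjusted p 0.00453) and -0.65 (adjusted p 0.00782). Replicate 3 of 21% oxygen at 24 h, with the highest GAS5 and SNHG1 levels of the series, also had a summed FPKM of 1171415 over all genes, where the groups of 1% and 5% oxygen at 24 h had at most 758974. Without that library GAS5 had -0.41 in 1% (adjusted p 0.0789) and -0.44 in 5% oxygen (adjusted p 0.158). After rescaling to TPM the values were -0.15 and -0.19, and neither passed (adjusted p 0.274 and 0.189). For SNHG1 without that library the 5% difference was -0.25 (adjusted p 0.0947), while the 1% difference passed. In 5% oxygen at 24 h neither passed without replicate 3 of that group, with -0.61 for GAS5 (adjusted p 0.0636) and -0.29 for SNHG1 (adjusted p 0.0598).

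At 3 d GAS5 was higher in 5% oxygen, with 1090.0, 1244 and 1473 FPKM against 885, 914 and 998 FPKM in 21%. The difference was 0.44 (adjusted p 0.032), and 0.0572 was its adjusted p with no filter on low values. It did not pass without replicate 1 or 2 of 21% oxygen (0.40 and 0.42, adjusted p 0.108 and 0.086) or replicate 2 or 3 of 5% oxygen (0.44 and 0.32, adjusted p 0.068 and 0.188). In 1% oxygen GAS5 was 943, 1020.0 and 668 FPKM, overlapping 21% oxygen, with a difference of -0.11 (95% interval -0.41 to 0.19, adjusted p 0.54) and 0.08 without the sparse library, which held the lowest GAS5 level of the series. The difference from 5% oxygen at 3 d was -0.54 (adjusted p 0.00767), and it did not pass without the sparse library (-0.36, adjusted p 0.0603) or replicate 3 of 5% oxygen (-0.43, adjusted p 0.057). At 6 h and 6 d no difference from 21% oxygen passed. The F test of variation with time passed in 5% oxygen (F 9.2, adjusted p 0.00375) and not in 1% (F 3.29, adjusted p 0.0781). GAS5 and SNHG1 thus differed in their levels at 3 d and 6 d in 1% oxygen: the ratio of SNHG1 to GAS5 was 0.404 ± 0.0496 at 3 d and 0.34 ± 0.0158 at 6 d, against 0.265 ± 0.0111 and 0.249 ± 0.0075 in 21% oxygen (SD, n = 3), with no overlap.

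The genes most like GAS5 over the 12 group means were ZFAS1 (Pearson 0.879), itself a snoRNA host, GLOD5 (0.859) and OSTC (0.855), a subunit of the enzyme that glycosylates proteins. Those most like SNHG1 were COQ4 (0.903), ADPRHL2 (0.895) and NSRP1 (0.894). WDR74, a ribosome biogenesis factor whose gene stands beside SNHG1 in RefSeq, was lower in 1% oxygen at 24 h (-0.59, adjusted p 0.000788), as SNHG1 was, and also later, when SNHG1 was higher: -1.27 at 3 d (adjusted p 3.56e-10; -1.41 without the sparse library) and -0.43 at 6 d (adjusted p 0.0097) in 1% oxygen. SLC3A2, on the other side, had -0.50 at 3 d (adjusted p 0.0737; 0.07 without the sparse library). ZBTB37, beside GAS5 on chromosome 1, had -0.53 at 3 d in 1% oxygen (adjusted p 0.188; 0.18 and 0.509 without the sparse library).

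Among 15 tested noncoding hosts of snoRNAs other than these members, 6 fell at 24 h in 5% oxygen, beside 6.99% of all genes. In 1% oxygen 4 fell and none rose, beside 9.66% of all genes that fell. The 4 were SNHG6 (603 to 294 FPKM, log2 difference -0.94), ZFAS1 (-0.85), SNHG5 (-0.80) and SNHG8 (-1.03), with adjusted p between 0.00282 and 0.013. The list's median was -0.48 in 1% and -0.64 in 5% oxygen, beside 0 and -0.02 over all genes. Falls at 24 h depended on the scale. In FPKM 1026 of all genes were lower in 1% and 743 in 5% oxygen, and after rescaling to TPM 88 and 12 were. The median of all genes then became 0.39 and 0.36. Values of these hosts after that rescaling are not given here. With the sparse library left out of the fit, which changes only the pooled spread at 24 h, 12 fell and 1 rose in 1% oxygen and 11 fell in 5%. Of all genes 22% and 18.7% fell in that fit. At 3 d in 1% oxygen 5 fell and 2 rose, beside 36.3% and 16.9% of all genes. Without the sparse library 5 fell and 1 rose, beside 28.5% and 25.2%. The host with the smallest adjusted p there was DANCR, which fell from 444.5 to 123 FPKM (-2.04, adjusted p 1.53e-07, and -1.46 without the sparse library). SNHG12 rose there (0.82, adjusted p 0.000383) and in 5% oxygen (0.67, adjusted p 0.00586), as SNHG1 did. At 6 d in 1% oxygen no host on this list passed. With the sparse library left out of the fit 2 rose and 1 fell, beside 13.8% and 16% of all genes.

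**Figure D4:**
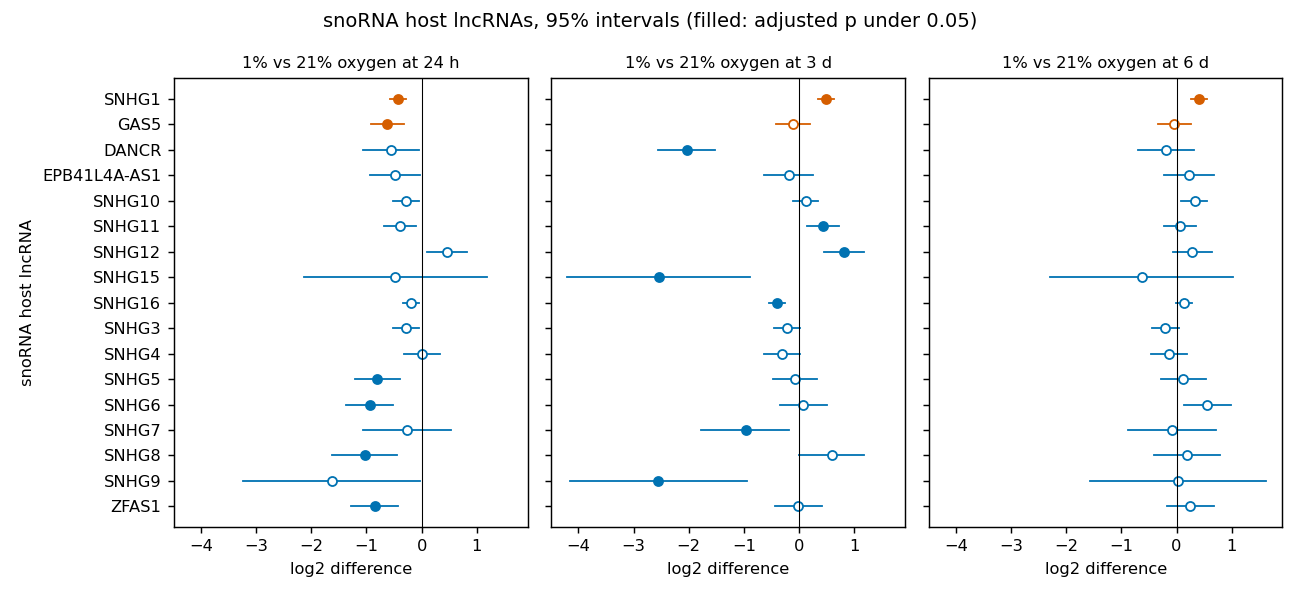
Differences in log2(FPKM + 1) between 1% and 21% oxygen (horizontal axes) with 95% intervals for GAS5 and SNHG1 (orange) and 15 other noncoding snoRNA hosts (blue) at 24 h, 3 d and 6 d; filled points have an adjusted p under 0.05. At 24 h most points lie below 0, and at 6 d SNHG1 (0.41) is the filled one. With the sparse library left out of the fit 3 of the 15 other hosts passed there, beside 29.8% of all genes.

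Of 9 genes for proteins that assemble with snoRNAs 5 fell at 24 h and 9 at 3 d in 1% oxygen, and 3 and 5 in 5%, with none higher. Of all genes tested 9.66% and 36.3% fell in 1% oxygen, and 6.99% and 13.6% in 5%. The 24 h counts are in FPKM, and those after rescaling to TPM are not given here. With the sparse library left out of the fit 8 fell and 1 rose at 24 h in 1% oxygen, where 22% of all genes fell. In 5% oxygen 7 and 8 fell at 24 h and 3 d, beside 18.7% and 29.2%. The median at 3 d in 1% oxygen was -1.23 beside -0.32 over all genes (-0.87 and -0.01 without the sparse library). Without that library 9 fell as well, beside 28.5% of all genes. With all libraries GAR1 (-1.56), NOP56 (-1.47), NOLC1 (-1.09) and NHP2L1 (-1.19) had the smallest adjusted p. SNHG1 rose at that time and GAS5 did not pass. Of 10 nonsense-mediated decay factors, which degrade spliced GAS5 and similar hosts, 5 fell at 3 d in 1% oxygen, where 36.3% of all genes fell. Of the others 1, UPF2 (0.57, adjusted p 0.00448), rose. The list's median was -0.36, near that of all genes. Without the sparse library 4 fell, beside 28.5% of all genes. The median was then -0.14 beside -0.01, and UPF2 had 0.30 (adjusted p 0.0462). UPF1, the central helicase of that pathway, had -1.21 (adjusted p 0.00509) and -0.39 (adjusted p 0.027) without the sparse library.

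Counted together, the 5 measured members gave few calls early and more calls at 3 d. At 6 h 0 of 5 passed in 1% oxygen against 21%, where 0% of all genes tested passed, and 0 of 5 in 5% oxygen (0%), with 351 and 280 genes at an unadjusted p under 0.05. At 24 h 2 members were lower in 1% oxygen, beside 9.66% of all genes that passed as lower and 16.2% in either direction, and 2 were lower in 5% oxygen, beside 6.99% and 9.38%. At 3 d 4 members were higher in 1% oxygen, beside 16.9% of all genes that passed as higher and 53.2% in either direction, and 5 were higher in 5% oxygen, beside 8.25% and 21.8%. At 6 d 2 members were higher in 1% oxygen, beside 5.84% and 10.9%, and 4 in 5% oxygen, beside 7.24% and 14.8%. With the sparse library left out of the fit more genes passed at every time from 24 h, with 22% lower at 24 h, 25.2% higher at 3 d and 13.8% higher at 6 d in 1% oxygen, and 18.7%, 15.7% and 15.3% in 5%. After rescaling to TPM 88 genes were lower and 2286 higher at 24 h in 1% oxygen, and 12 and 1709 in 5%. The members' median at 3 d was 1.56 in 1% oxygen and 0.58 in 5%, beside -0.32 and -0.10 over all genes. Averaged over the 4 times, 4 rose in 1% oxygen (12.4% of all genes were higher and 31.4% passed in either direction) and 1, GAS5, fell (-0.22, adjusted p 0.0216; 19% of all genes were lower), a call that ended after quantile normalization (-0.05) and rescaling to TPM (-0.06). NEAT1, MALAT1 and H19 rose on average in 5% oxygen (9.21% higher, 24.2% in either direction). Variation with time passed for 4 members in 1% (40.3%) and for 5 in 5% oxygen (14.5%).

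For scale, 12 genes induced by HIF rose by a median of 2.69 at 3 d in 1% oxygen and 2.52 in 5%. All 12 passed in each, beside 16.9% and 8.25% of all genes that were higher. At 24 h 9 of these 12 were already higher in 1% oxygen, beside 6.56% of all genes. Their median was 1.74, whereas no member was higher then. In 21% oxygen at 3 d the carbonic anhydrase gene CA9 was listed at 0 FPKM, and it averaged 32.9 FPKM in 1%, and BHLHE40, a transcriptional repressor, rose by 3.35. At 6 d 10 of the 12 were still higher in 1% oxygen (median 2.58), beside 5.84% of all genes. NEAT1 and SNHG1 were the members that passed at that time. No level of miR-210 or of its host MIR210HG is given here. Of 8 tested targets reported for miR-210, 6 fell and none rose at 3 d in 1% oxygen, where 36.3% of all genes tested fell. Without the sparse library 4 fell and 1 rose, beside 28.5% of all genes that fell. Among the 6 were GPD1L (-1.39, adjusted p 0.00166), SDHD (-1.47, adjusted p 0.0038), COX10 (-0.40, adjusted p 0.00945) and ISCU (-0.27, adjusted p 0.0163). Without the sparse library GPD1L had -0.64 and SDHD -0.45. The median of the 8 targets was -0.66, beside -0.32 over all genes, and -0.17 without the sparse library. In 5% oxygen 1 of the 8 fell, COX10 (-0.44, adjusted p 0.0111), and 3 did with the sparse library left out of the fit. Of all genes 13.6% and 29.2% fell there.

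Ordered by level, neighbouring groups mostly overlapped. Of the 11 pairs of neighbours in the order of the 12 group means, 10 overlapped for NEAT1, 10 for MALAT1, 7 for H19, 11 for GAS5 and 9 for SNHG1. For NEAT1 and MALAT1 the pair that stood apart was 1% oxygen at 3 d and the group next to it, 5% oxygen at 3 d for NEAT1 (20.9 FPKM) and 5% oxygen at 6 d for MALAT1 (299 FPKM). For H19 the order ran from 5% oxygen at 3 d (9.27 FPKM) over 1% at 3 d (7.09 FPKM), 5% at 6 d (6.98 FPKM), 21% at 6 d (3.12 FPKM), 1% at 6 d (2.89 FPKM) and 21% at 3 d (1.76 FPKM) to the 6 early groups, between 0.559 and 1.02 FPKM. For SNHG1 the highest group was 21% oxygen at 24 h (384 FPKM) and the lowest 21% oxygen at 6 d (220.2 FPKM), so that both ends were in atmospheric oxygen. For GAS5 the ends were 5% oxygen at 3 d (1269 FPKM) and at 6 d (773 FPKM).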

How the data were processed

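RNA was measured in 36 libraries of K562 cells. The authors deposited FPKM values for genes and transcripts, made with TopHat, Cufflinks and Cuffnorm per the submitters' processing notes. For the tool versions, genome build and annotation, nothing is given in the sources used here. FPKM carries no counts, so the depth behind a value is unknown. The protocol named in the labels does not mark strand, so reads of a member and of an RNA antisense to it cannot be told apart.

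Groups came from the labels. Values were taken as log2(FPKM + 1), and genes with a mean of at least 1 FPKM were tested in a limma model (limma 3.58.1, R 4.3.3) whose 12 coefficients were the group means. It used a prior trended on expression and left 24 residual degrees of freedom. Tests were two-sided, with Benjamini-Hochberg adjustment over all genes tested and a threshold of 0.05. The procedure was tested on simulated data. Members and gene lists were chosen with earlier results of these data known. Named were the members, up to 4 genes of each list with the smallest adjusted p in a comparison (some were left out), the neighbours, and the 3 genes most correlated with each member. Olfactory receptor genes served as a background measure.

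Alternatives were a pseudocount of 0.1, a filter of 5 FPKM or none, the replicate number as a block, quantile normalization, rescaling to TPM, array weights, a fit on the compared groups, sums over transcripts, and leaving out libraries. Neighbouring genes and sequences came from RefSeq (GRCh38.p14). Python 3.11.15 with matplotlib 3.10.9 drew the figures. Values of some neighbouring and listed genes are not reported here.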

Additional observations from a re-analysis of the deposited data

Results flagged for a closer look

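For 9 results the difference from 21% oxygen was not the same at the 4 times, by a moderated F test (limma, Benjamini-Hochberg adjusted over all genes). In 1% oxygen these were NEAT1 (adjusted p 4.72e-09), SNHG1 (7.55e-08), MALAT1 (3.24e-07) and H19 (1.58e-05). In 5% oxygen they were NEAT1 (4.32e-06), H19 (5.02e-06), SNHG1 (1.5e-05), GAS5 (0.00375) and MALAT1 (0.00783). SNHG1 changed sign, from -0.43 at 24 h to 0.49 at 3 d in 1% oxygen, and GAS5 went from -0.65 at 24 h to 0.44 at 3 d in 5% oxygen. The 24 h values of both depended on the scale, as given with their results. NEAT1, MALAT1 and H19 had their largest differences from 21% oxygen at 3 d in 1% oxygen, and in 5% oxygen NEAT1 and H19 did so at 3 d and MALAT1 at 6 d.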

How the results depend on the processing

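Under the alternatives, 2025 of 2166 member values kept their side of the threshold, 79 lost the call and 58 gained one with the same direction, and 4 that were called as reported or under the alternative changed direction. The 4 were SNHG1 at 24 h in 5% oxygen (0.05 after quantile normalization, 0.11 after rescaling to TPM) and in 1% oxygen (0.03, TPM), and GAS5 in 21% oxygen from 6 h to 6 d (0.16, quantile normalization). Of 1142 called in neither, 54 had the opposite sign, none beyond 0.33. The tally includes the sums over transcripts, which could not change a member, since each member had 1 record. Where 1% oxygen at 3 d was compared, leaving out the sparse library counts both as its own setting and among the left-out libraries. Members called at 24 h in 1% oxygen numbered 0 after quantile normalization, 1 with TPM (NEAT1, higher) and 0 on the compared groups alone. They numbered 1 to 2 with a library left out (1 without replicate 3 of 21% oxygen at 24 h). In 5% oxygen at 24 h they numbered 0 in each of these 3 settings and 0 to 2 with a library left out (0 without replicate 3 of 21% or of 5% oxygen). At 3 d in 5% oxygen they numbered 3 with no filter, 3 with TPM and 3 to 4 with a library left out, MALAT1 and GAS5 being the calls lost most often. Variation with time in 5% oxygen passed for 2 members with TPM.

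Averaged over times, GAS5 in 1% oxygen had -0.05 (adjusted p 0.144) after quantile normalization and -0.06 (0.379) with TPM. SNHG1 in 5% oxygen passed with 0.25 (quantile normalization), 0.23 (TPM), 0.12 (array weights), 0.08 (adjusted p 0.0224) without the sparse library and 0.08 (0.0426) in the fit on the compared groups. SNHG1 also passed there without replicate 3 of 21% oxygen (0.11, adjusted p 0.0117) or of 5% oxygen (0.10, adjusted p 0.0454) at 24 h. GAS5 in 5% oxygen passed with array weights (-0.13) and without replicate 1 of 21% oxygen at 24 h (-0.19, adjusted p 0.042). With a library left out the 5% averages were 0.07 to 0.11 for SNHG1, 0.26 to 0.38 for MALAT1, whose call ended in 11 cases, and -0.19 to -0.09 for GAS5. With the mean filter at 5 FPKM H19 had no value. The cause of these changes was not tested, and depth in reads is unknown. Same-numbered libraries correlated between -0.26 and 0.12 in 24 pairs. No pairing by number was seen, and 3 libraries per group cannot exclude it. With the number as a block 5625 genes passed at 3 d in 1% oxygen, the members' counts against 21% oxygen at each time did not change, and NEAT1 had 2.57 there.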
